A study of Mus musculus with 8 samples.

Results

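The elastic fibre genes described here are 9 genes chosen by symbol: Eln, Fbn1, Ltbp4, Mfap4, Fbln5, Efemp2, Emilin1, Lox and Loxl1. All 9 symbols were found among the 52195 genes measured. They were read in 8 libraries of bulk RNA from mouse lung, kidney, small intestine and liver, 2 for each organ. The mice were untreated C57BL/6 animals (C57BL/6J males, per the study's methods) aged 6 to 10 weeks, and no group carried a transgene or a deleted allele. Polyadenylated RNA was taken from whole powdered tissue, so each library mixes all cell types of the organ. Levels are given as FPKM, fragments scaled to transcript length and to library size, which allows genes of different length to be set side by side.

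Elastic fibres give lung, large arteries and skin their recoil. Tropoelastin, the soluble product of Eln, is secreted by fibroblasts, smooth muscle cells and some endothelial and mesothelial cells and is deposited on a scaffold of fibrillin microfibrils. Fibulins and related glycoproteins guide this deposition, and lysyl oxidases then cross-link the elastin into an insoluble polymer. Most elastin is laid down around birth and in early postnatal life, and the finished fibres turn over slowly.

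Each tissue carried the genes that define it. The summed FPKM of the lung epithelial genes Sftpc and Scgb1a1 was 57603 and 71315 in the lung libraries and at most 76.2 elsewhere. The hepatocyte sum was 35540 and 30286 in liver, the kidney tubule sum 1739 and 1209 in kidney, and the enterocyte sum 5112 and 6608 in small intestine. Both small intestine libraries also held pancreatic acinar genes, at sums of 1139 and 517 against at most 2.02 in the other libraries. The part of this admixture in the small intestine values below was not tested. Between 9164156 and 21444661 reads fell on genes in a library. The lowest member value rested on 7 reads, so every member was above the 3-read detection floor in every library, and such floors cover counting error only.

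All 9 elastic fibre genes were higher in lung than in the 3 remaining tissues on average. In a limma fit across 16328 genes, all 9 passed the threshold of an adjusted p under 0.05 with a log2 difference over 1, where 40.7% of the genes tested were called higher in lung and 8.26% lower. The members were chosen with earlier results of these data known, so this count describes them and is no test of the list. Differences are given on the log2(FPKM + 1) scale, which understates the change of genes with low values. The median difference of the 9 members was 3.29, and that of all genes tested was 0.82. Lung thus stood high for many genes, and 51.4% of the genes tested had both lung libraries above the other 6. Fbn1 and Lox passed the filter on low values (2 or more libraries reaching an FPKM of 1) only through lung, so they had to differ. The 7 others also passed in the libraries outside lung, and all 7 were called there against 35.5% of 13763 genes. For each of the 9, the lower lung library exceeded the highest of the other 6, and an exact two-sided permutation test of 2 against 6 libraries gave p = 0.0357, the smallest value this design allows. In bulk tissue, fewer cells of a type and less RNA per cell cannot be told apart.

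**Figure D1:**
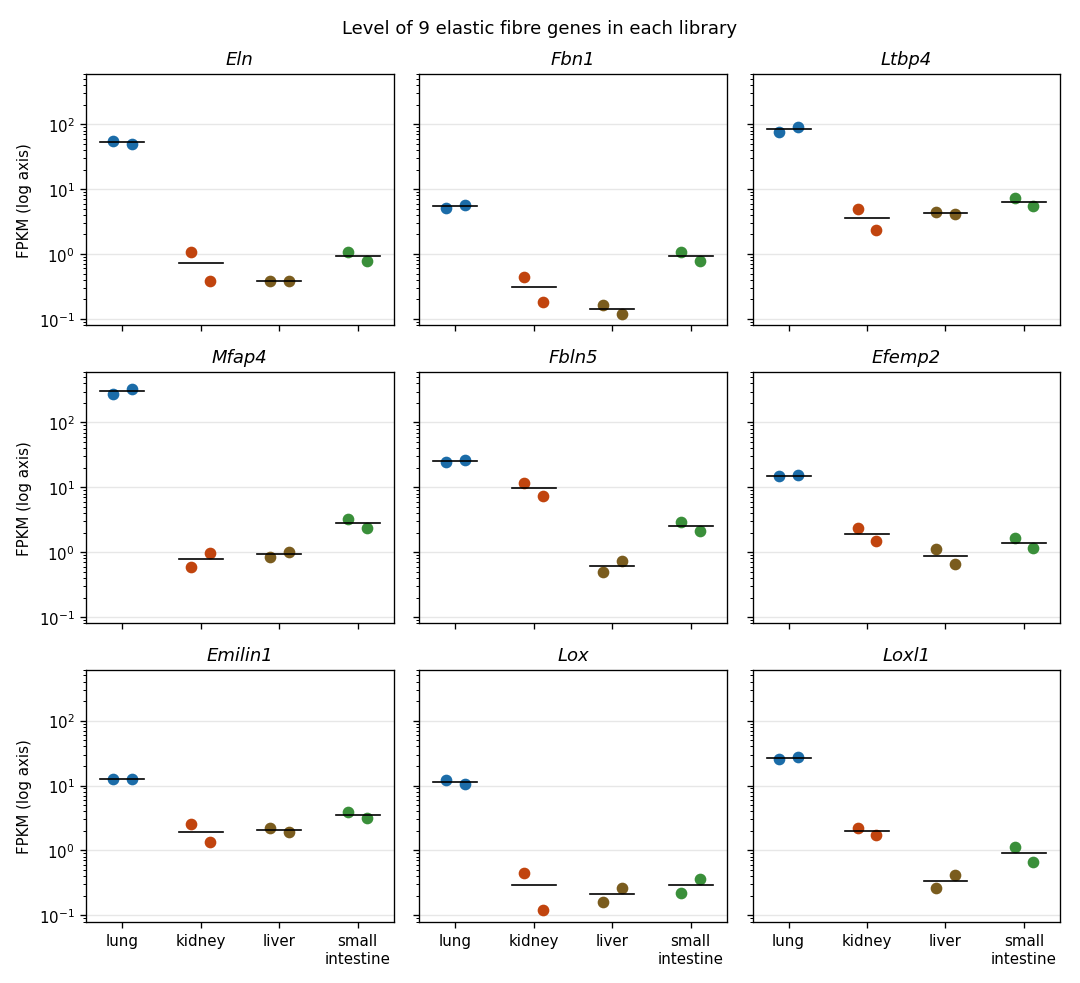
FPKM of the 9 elastic fibre genes in each of the 8 libraries (log axis), with 1 panel per gene, points for single libraries and bars for the mean of the 2 libraries of a tissue. Both lung points lie above all others in every panel, and Fbln5 in kidney (11.8 and 7.47) comes nearest to lung.

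Eln, on chromosome 5 (chr5:134702593-134747323, minus strand, GRCm38), encodes the elastic core of the fibre. Its level was 54.5 and 50.3 FPKM in lung, 1.07 and 0.385 in kidney, 1.07 and 0.774 in small intestine, and 0.377 and 0.383 in liver. The groups did not overlap between lung and the rest, and the lower lung library was 46.9-fold above the highest of the others. The lung libraries held 4312 and 5058 Eln reads. The lung mean was 52.4 ± 3.02 FPKM (SD, n = 2). The log2 difference was 5.02 (SE 0.18, adjusted p = 6.26e-07), the 93rd highest among all genes tested. Among the genes tested, Eln ranked in the upper part in lung, with 5.75% and 6.25% of them above it. In the other 6 libraries, 70.6% to 77.4% of the genes tested were above it. The 3 tissues outside lung could not be put in order. Small intestine and kidney differed by 0.18 on the log2 scale (95% interval -0.35 to 0.71), and kidney and liver by 0.30 (-0.23 to 0.82).

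The microfibril group comprised Fbn1, the fibrillin that forms the backbone of the microfibril, Ltbp4, which tethers latent TGF-beta and aids elastin deposition, and Mfap4, a glycoprotein that binds microfibrils and tropoelastin. Mfap4 (chr11:61485431-61488900, plus strand) was the most abundant of the 9 in lung and had the largest lung difference. Its level was 278 and 325 FPKM in lung, 0.582 and 0.962 in kidney, 3.28 and 2.39 in small intestine, and 0.852 and 1.01 in liver. Fewer than 1% of the genes tested were above it in lung (0.888% and 0.729%), and the lower lung library was 84.7-fold above the highest other one. The lung mean was 301 ± 33.3 FPKM (SD, n = 2). The log2 difference was 7.0 (SE 0.16, adjusted p = 2.48e-07), the 15th highest of the genes tested. Mfap4 shares 4.63% of its exon length with Mapk7, which was at 5.85 and 7.62 FPKM in lung.

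Ltbp4 (chr7:27305136-27337692, minus strand) was at 76.8 and 91.1 FPKM in lung. It was at 4.87 and 2.33 in kidney, 7.36 and 5.44 in small intestine, and 4.49 and 4.18 in liver. The lung libraries stood at least 10.4-fold above the rest, which ranged from 2.33 in a kidney library to 7.36 in a small intestine library. The difference between lung and the others was 3.93 (SE 0.23, adjusted p = 3.55e-06).

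Fbn1 (chr2:125300594-125507993, minus strand) had the lowest lung level of the 9, at 5.12 and 5.79 FPKM. It was at 0.450 and 0.181 in kidney, 1.07 and 0.794 in small intestine, and 0.162 and 0.120 in liver. It stood near the middle of the genes tested in lung, with 50.2% and 48.1% of them above it. Small intestine came next in order and above both remaining tissues, but its differences from kidney (0.56, adjusted p = 0.0252) and liver (0.75, adjusted p = 0.00557) did not exceed 1. With a pseudocount of 0.1, which compresses low values less, they were 1.38 and 2.09 and both were called. Lung exceeded the mean of the others by 2.18 (SE 0.13, adjusted p = 4.68e-06), but Fbn1 passed the filter on low values only through lung. Fbn1 shares 20.1% of its exon length with Gm9913, which was at most at 0.0288 FPKM. Whether counting used the strand is not given in the sources used here.

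The assembly group comprised Fbln5 and Efemp2, the fibulins that bring tropoelastin, cross-linking enzymes and microfibrils together, and Emilin1, a glycoprotein found at the interface of elastin and microfibrils. Fbln5 (chr12:101746565-101819055, minus strand) departed from the pattern of the other members in the level reached outside lung. It was at 24.8 and 26.5 FPKM in lung, 11.8 and 7.47 in kidney, 2.89 and 2.11 in small intestine, and 0.489 and 0.729 in liver. The 4 tissues did not overlap. Lung exceeded the mean of the other 3 by 2.78 (SE 0.19, adjusted p = 8.83e-06), but the lower lung library was only 2.10-fold above the higher kidney library.

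Efemp2 (chr19:5473954-5482517, plus strand) was at 14.9 and 15.4 FPKM in lung, 2.32 and 1.48 in kidney, 1.65 and 1.17 in small intestine, and 1.11 and 0.658 in liver. Kidney and small intestine overlapped, and all 6 libraries outside lung lay within 0.658 to 2.32 FPKM. The difference between lung and the others was 2.78 (SE 0.18, adjusted p = 6.63e-06). Efemp2 shares 4.57% of its exon length with Mus81, at 7.06 and 7.76 FPKM in lung.

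Emilin1 (chr5:30913402-30921277, plus strand) had the smallest difference between lung and the rest. It was at 12.4 and 12.5 FPKM in lung, 2.53 and 1.36 in kidney, 3.96 and 3.11 in small intestine, and 2.21 and 1.90 in liver. Both lung libraries were at least 3.13-fold above the others, whose ranges overlapped between kidney and liver. The log2 difference was 1.98 (SE 0.19, adjusted p = 4.37e-05). With median-of-ratios scaling it was 0.98 (adjusted p = 0.000808) and no longer passed the threshold on size, so 8 of the 9 were then called, against a background of 14.7%.

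The sequence just before the transcript start is shown for the 3 members called higher in lung that have a window overlapping no annotated exon. Windows for 5 of the 9 members were found in RefSeq (GRCm38.p6), some with several starts. Each window holds the 250 bases before 1 start, 5′ to 3′ on the strand of the gene, and capitals mark GGGCGG or its reverse complement, the core of the GC box bound by Sp-family factors. The Fbln5 window spans chr12:101819120-101819369 (minus strand), the Ltbp4 window chr7:27333664-27333913 (minus strand) and the Efemp2 window chr19:5473696-5473945 (plus strand).
Fbln5: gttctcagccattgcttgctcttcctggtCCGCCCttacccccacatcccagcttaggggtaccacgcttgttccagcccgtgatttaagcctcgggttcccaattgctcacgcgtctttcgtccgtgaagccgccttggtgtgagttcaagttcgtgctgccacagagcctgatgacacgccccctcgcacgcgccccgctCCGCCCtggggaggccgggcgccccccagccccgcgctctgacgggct
Ltbp4: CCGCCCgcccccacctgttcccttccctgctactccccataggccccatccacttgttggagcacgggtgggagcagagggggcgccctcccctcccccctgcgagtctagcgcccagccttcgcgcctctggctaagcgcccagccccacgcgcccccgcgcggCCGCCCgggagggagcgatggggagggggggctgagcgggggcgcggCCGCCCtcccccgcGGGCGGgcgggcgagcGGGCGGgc
Efemp2: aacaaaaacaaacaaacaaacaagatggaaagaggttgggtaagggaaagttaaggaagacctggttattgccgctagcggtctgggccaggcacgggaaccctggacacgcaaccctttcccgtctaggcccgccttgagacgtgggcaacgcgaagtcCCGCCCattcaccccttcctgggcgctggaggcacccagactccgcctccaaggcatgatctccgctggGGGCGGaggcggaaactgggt
The GC content of these windows was 65.2% for Fbln5, 79.2% for Ltbp4 and 59.2% for Efemp2, against a median of 52.4% over 32851 mouse windows of the same length. Non-overlapping matches to GGGCGG on either strand numbered 2 in Fbln5, 5 in Ltbp4 and 2 in Efemp2. In all, 8 of the 10 windows of the 5 members held it, against 32.7% of all windows. Some windows of Ltbp4 and of Efemp2 overlap each other, so the same matches are counted more than once. The Emilin1 window and a second Fbln5 window (49.6% GC) held none. On both strands, none of the windows of the 5 held TATAAA (12.4% of all windows), TGANTCA (6.75%), GGAATG (12.6%) or a CArG box (1.47%). These are matches of letters within 250 bases and say nothing of binding.

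The cross-linking group comprised Lox and Loxl1, copper-dependent amine oxidases that oxidise lysines of collagen and elastin. Lox was at 12.2 and 10.5 FPKM in lung, 0.456 and 0.120 in kidney, 0.222 and 0.367 in small intestine, and 0.159 and 0.262 in liver. Outside lung it was low everywhere and the 3 tissues overlapped, with 7 to 47 reads per library. Lung exceeded the mean of the others by 3.29 (SE 0.15, adjusted p = 1.28e-06), but Lox passed the filter on low values only through lung. Loxl1 (chr9:58287738-58313186, minus strand) was at 25.3 and 27.7 FPKM in lung, 2.25 and 1.73 in kidney, 1.13 and 0.670 in small intestine, and 0.265 and 0.411 in liver. Its tissues formed an order of lung, kidney, small intestine and liver without overlap, but the limma step from small intestine to liver (0.50, adjusted p = 0.0656) was not called. Liver against small intestine was at -1.17 with a pseudocount of 0.1 and was then called. Lung exceeded the mean of the others by 3.81 (SE 0.16, adjusted p = 1.04e-06), and the lowest ratio of a lung to another library was 11.3. The ratio of Loxl1 to Lox was 2.08 and 2.65 in lung and 4.94 and 14.4 in kidney, where the higher ratio rested on 10 Lox reads. It was 5.11 and 1.82 in small intestine and 1.67 and 1.57 in liver.

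Since the lung libraries were high for most genes, the differences were also read relative to the median of all genes. Less the median of 0.82, they were 6.19 for Mfap4, 4.20 for Eln, 3.11 for Ltbp4, 2.99 for Loxl1, 2.47 for Lox, 1.96 for both Efemp2 and Fbln5, 1.36 for Fbn1 and 1.16 for Emilin1. With median-of-ratios scaling the median of all genes fell to -0.02, and the members ranged from 0.98 for Emilin1 to 5.97 for Mfap4, with Eln at 4.06. Emilin1 was not called on this scaling, and the other 8 were.

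Outside lung the members differed in how low they were. Fbln5 in kidney had 18.2% and 22.7% of the genes tested above it, and Ltbp4 in liver had 27.1% and 29.8%. In the limma fit on the values as deposited, no member was called higher in kidney, liver or small intestine than in the remaining tissues on average. Of all genes, 8.65%, 6.56% and 13.7% were. At an unadjusted p under 0.05 the counts were 1 in kidney (Fbln5), 0 in liver and 0 in small intestine, a level at which the share of all genes was not computed. Fbln5 was called higher in kidney with a pseudocount of 0.1 (1.41), median-of-ratios scaling (1.37) and quantile normalization (1.15). Limma-voom on reads recovered from the FPKM called 1 in kidney (Fbln5), where it called 12.6% of all genes higher. These contrasts contain lung in the mean they are set against. In kidney, 4 members were called lower (Eln, Ltbp4, Mfap4 and Lox), where 16.1% of all genes were. In liver, 8 were called lower, all but Emilin1, against 32.7%, and with median-of-ratios scaling 4 were, against 13.9%. In small intestine, 5 were called lower (Eln, Mfap4, Fbln5, Lox and Loxl1), against 11.3%. The Lox calls lay at the threshold. In kidney (-1.07) the call was lost with median-of-ratios scaling (-0.83), quantile normalization (-0.82) and without kidney replicate 2 (-0.88). In small intestine (-1.05) it was lost with the same scalings (-0.87 and -0.99), with limma-voom (adjusted p = 0.0611), without kidney replicate 1 (-0.98) and without small intestine replicate 1 (-0.96). The Fbln5 call in small intestine was lost without small intestine replicate 2 (-0.97). In kidney, Fbn1 (-1.49) and Emilin1 (-1.23) were called lower as well with a pseudocount of 0.1.

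Tissue pairs separate these levels from lung. Over 6 pairs and 9 members, 32 of 54 contrasts were called, of which 27 set lung above another tissue. With median-of-ratios scaling and with quantile normalization 27 contrasts in all were called. Emilin1 in lung against liver was then at 0.78 and 0.92, and against small intestine it was at 0.86 with median-of-ratios scaling, all under the threshold. The backgrounds for lung higher were 41.4% against kidney, 55.5% against liver and 30.6% against small intestine. The other 5 calls concerned Fbln5, Loxl1 and Mfap4. Fbln5 was higher in kidney than in liver by 2.70 (95% interval 2.15 to 3.25, adjusted p = 7.60e-05) and than in small intestine by 1.58 (adjusted p = 0.00107), where 16.2% and 10.7% of all genes were called higher in kidney. It was also higher in small intestine than in liver by 1.12 (adjusted p = 0.00517), a pair in which 28.3% of genes were higher in small intestine. That call was lost with median-of-ratios scaling (0.70), with quantile normalization (0.54) and without small intestine replicate 1 (0.95). Fbln5 was the one member for which each neighbour in the order of lung, kidney, small intestine and liver was called. The step from lung to kidney was 1.35 (adjusted p = 0.00144), and with median-of-ratios scaling it was 0.32 with kidney still lower (adjusted p = 0.142), so that this step, too, depends on the scaling.

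Loxl1 was higher in kidney than in liver by 1.16 (adjusted p = 0.00276), or by 0.87 and no longer called with quantile normalization. Its step from kidney to small intestine of 0.66 (adjusted p = 0.0284) did not exceed 1, but was called with a pseudocount of 0.1 (1.09) and with limma-voom (1.19). Mfap4 was higher in small intestine than in kidney by 1.11 (adjusted p = 0.00248), where 18.8% of all genes were. This call lay close to the threshold, since without kidney replicate 1 the difference was 0.96 and without small intestine replicate 1 it was 0.94. It was 0.91 with median-of-ratios scaling and 0.81 with quantile normalization. Mfap4 differed between small intestine and liver by 0.98 (adjusted p = 0.00379), just under the threshold, and was called with a pseudocount of 0.1 (1.5) and with limma-voom (1.55). For Eln, Fbn1, Ltbp4, Efemp2, Emilin1 and Lox, no contrast between kidney, liver and small intestine was called on the log2(FPKM + 1) scale. Fbn1 was called higher in small intestine with a pseudocount of 0.1 (by 1.38 over kidney and 2.09 over liver) and with limma-voom (by 1.63 and 2.68). Ltbp4 was called higher in small intestine than in kidney without kidney replicate 1 (1.14). The intervals remained wide. For Ltbp4 in small intestine against kidney, for example, the interval was 0.08 to 1.38.

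The 2 kidney libraries did not hold the members at equal levels. Replicate 1 was higher for 8 of 9 members (all but Mfap4), with a median difference of 0.42 on the log2 scale against 0.22 for all genes. In small intestine, replicate 1 was higher for 8 of 9 (all but Lox), with a median of 0.29 against 0.03. The summed fibroblast markers moved the same way, at 13.1 and 8.39 FPKM in kidney and 41.8 and 39.0 in small intestine. In kidney, so did the smooth muscle (21.3 and 18.2), pericyte (10.6 and 5.90) and endothelial sums (17.4 and 9.25). In small intestine these were at 310 and 254, 30.4 and 25.2, and 9.43 and 6.44. Not every marker list fell, as hepatocyte genes rose in kidney (19.8 and 46.8). Mesothelial (3.84 and 4.08) and cardiac muscle genes (7.74 and 9.10) rose in small intestine. The part of any cell type in the differences between replicates was not tested.

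The make-up of the elastic fibre transcripts differed between tissues. The FPKM of the 9 genes summed to 504 and 564 in lung, 26.4 and 16 in kidney, 22.6 and 16.8 in small intestine, and 10.1 and 9.66 in liver. Mfap4 made up 55.1% and 57.5% of that sum in lung, whereas Fbln5 led in kidney (44.9% and 46.6%). Ltbp4 led in small intestine (32.5% and 32.3%) and in liver (44.4% and 43.3%), followed by Emilin1 at 17.5% and 18.5% in small intestine and 21.8% and 19.7% in liver. Eln itself took 10.8% and 8.91% in lung and 2.40% to 4.72% elsewhere.

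**Figure D2:**
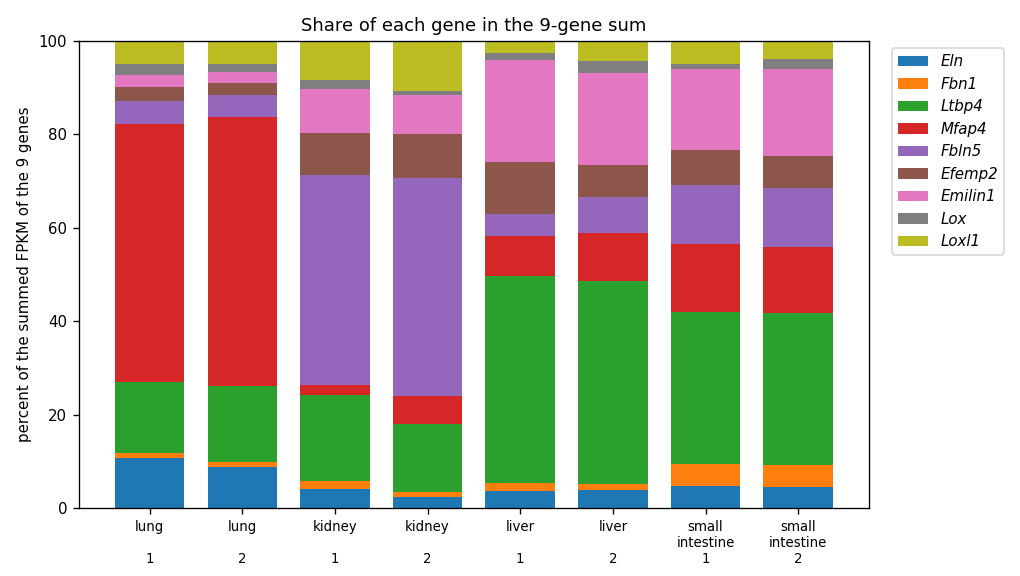
Share of the summed FPKM of the 9 elastic fibre genes taken by each gene (percent, stacked bars from 0), 1 bar per library. Mfap4 fills over 55% of both lung bars, Fbln5 is the widest band in both kidney bars, and Ltbp4 is the widest in liver and small intestine.

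Ratios within a library do not depend on its scaling. Eln stood 10.7 and 8.68 times above Fbn1 in lung. That ratio was 2.38 and 2.13 in kidney, 2.33 and 3.20 in liver and close to 1 in small intestine (1.0 and 0.976). Transcripts of core elastin and of its fibrillin scaffold thus stood in unequal proportion, and the lung ratios did not overlap with the rest. Fbln5 stood 5.09 and 5.04 times above Efemp2 in kidney, against 1.67 and 1.72 in lung, 1.75 and 1.81 in small intestine and 0.440 and 1.11 in liver. The kidney ratio was the highest of the 4 tissues in both libraries. These ratios were not tested.

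Cells that make elastic fibres were compared through their markers. The 6 fibroblast markers (Col1a1, Col1a2, Col3a1, Dcn, Lum and Pdgfra) were all called higher in lung, with sums of 238 and 208 FPKM in lung, 8.39 to 13.1 in kidney, 35.2 to 41.3 in liver and 39.0 to 41.8 in small intestine, and none was at 0. Their median lung difference was 3.32, close to the 3.29 of the members. The 4 endothelial markers were likewise called higher in lung, with sums of 287 and 343 FPKM against at most 17.4 elsewhere. Of the 6 smooth muscle markers, 5 were tested and called higher in lung, with sums of 252 and 256 FPKM. Small intestine had sums as high, at 310 and 254. The ratio of Eln to Myh11, the smooth muscle myosin heavy chain, was 3.46 and 3.07 in lung and 2.55 and 1.46 in liver. It was 0.506 and 0.438 in kidney and 0.0337 and 0.0299 in small intestine.

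Pericyte markers did not follow lung as a list, since Pdgfrb was called higher (2.86), Rgs5 lower (-1.37) and Cspg4 was at 0.78 and not called. Their sums were 19.3 and 22.4 FPKM in lung and 30.4 and 25.2 in small intestine, against 5.90 to 10.6 in kidney and liver.

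The lung libraries also held mesothelial markers (83.0 and 52.8 FPKM against at most 4.08) and cardiac muscle genes (216 and 222 against at most 9.10). Cartilage markers were near 0, with Col2a1 at 0.0853 and 0.0134 FPKM and Acan at 0.0960 and 0.0215 in lung. The part of each of these cell types in the lung difference was not tested.

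**Figure D3:**
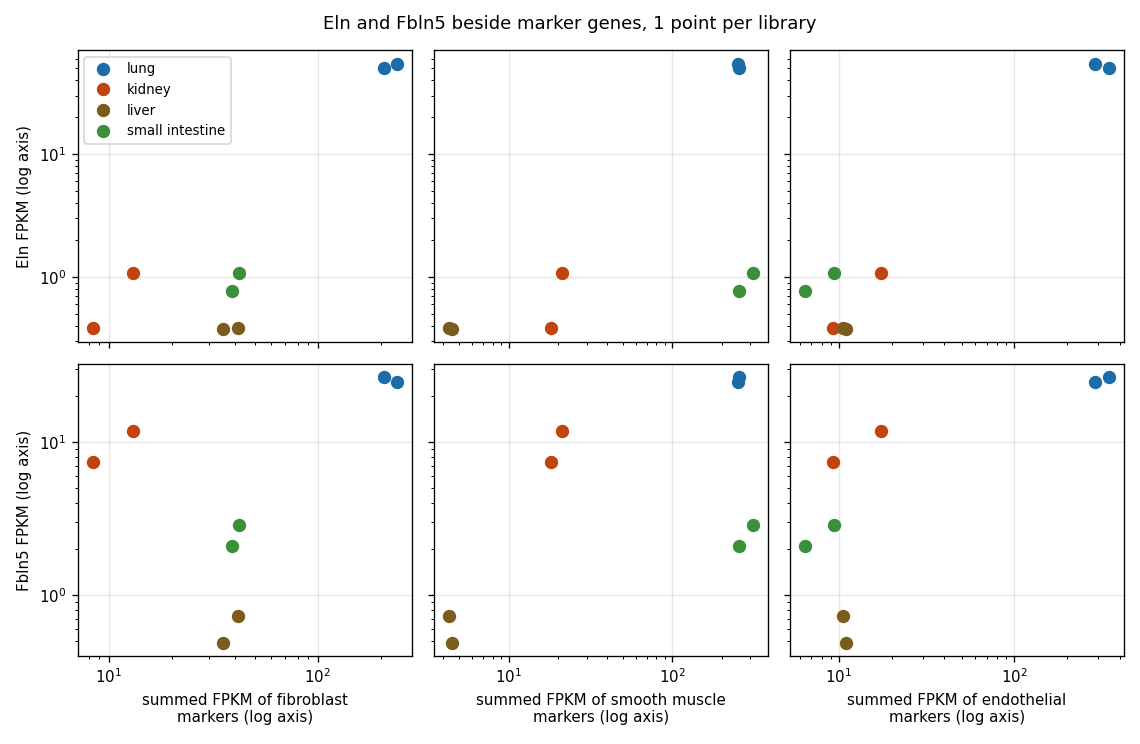
FPKM of Eln (upper row) and Fbln5 (lower row) against the summed FPKM of fibroblast, smooth muscle and endothelial markers (both axes log), 1 point per library coloured by tissue. The small intestine libraries match lung in smooth muscle sum (310 and 254 against 252 and 256) but lie low for Eln (1.07 and 0.774), and the kidney libraries have the lowest fibroblast sums but the second highest Fbln5.

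To set the members against fibroblast genes, the mean log2(FPKM + 1) of the 6 fibroblast markers was subtracted in each library. Mfap4 and Eln then remained called higher in lung, by 3.98 (adjusted p = 3.16e-09) and 1.99 (adjusted p = 9.10e-08). Of all genes, 1.67% were called higher in lung on this scale, and their median was -2.21, while that of the 9 members was 0.26. Ltbp4 (0.90) and Loxl1 (0.78) were above 0 but under the threshold of 1, and Lox (0.26, adjusted p = 0.132), Fbln5 (-0.25, adjusted p = 0.170) and Efemp2 (-0.24, adjusted p = 0.221) did not pass the test. With a pseudocount of 0.1, Lox (1.46) and Loxl1 (1.22) were called higher too. Fbn1 was at -0.85, and set against the 3 collagen genes alone it was called lower, at -1.18. Against all 6 fibroblast markers, Emilin1 was called lower, at -1.05 (adjusted p = 6.89e-05), as were 87.8% of all genes. That call lay at the threshold, at -0.99 without liver replicate 1 and -0.98 without lung replicate 1. Set against the smooth muscle markers instead, 5 members were called higher, with Ltbp4 (1.71), Loxl1 (1.60) and Lox (1.08) added, against 3.75% of all genes, and Emilin1 was at -0.24.

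**Figure D4:**
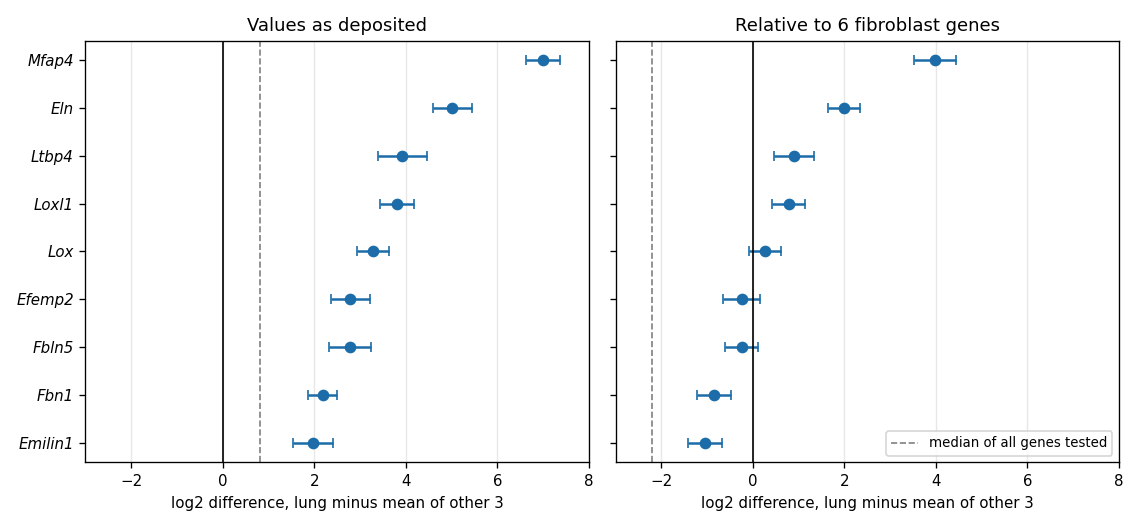
Difference between lung and the mean of the other tissues for the 9 members on the log2(FPKM + 1) scale, as deposited (left) and after subtraction of the mean of the 6 fibroblast markers (right). Points are estimates, bars 95% intervals and dashed lines the median of all genes tested (0.82 and -2.21); Mfap4 and Eln lie farthest to the right in both panels, and Emilin1 (1.98 and -1.05) farthest to the left.

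A wider list of 45 other genes of elastic fibre biology was counted in the same fit, and 40 of them were tested. In lung, 35 were called higher and 2 lower, beside 40.7% and 8.26% of all genes. This list, too, was chosen with earlier results of these data known, so the count is a description. The median difference was 2.08, beside 0.82 for all genes. Only 29 of the 40 passed the filter outside lung, and of these 24 were called higher, beside 35.5% of all genes. With quantile normalization 23 of the 40 were, against 15.6% of all genes. All 9 tested microfibril genes were higher, led by Mfap2 (5.17), which encodes a small microfibril glycoprotein and reached 58.7 and 63.3 FPKM in lung, and Adamts10 (4.0), a protease that binds fibrillin. All 7 further fibulins and EMI-domain genes were higher, among them Efemp1 (3.19) and Hmcn1 (2.13). Of the 5 lysyl oxidases and helpers, 4 were, with Fkbp10 (2.22), a collagen-folding isomerase of the endoplasmic reticulum, and Bmp1 (1.33), the proteinase that activates pro-lysyl oxidase. In liver, Bmp1 was at 8.05 and 9.93 FPKM against 9.56 and 10.1 in lung, a difference of 0.12 (95% interval -0.40 to 0.65) that was not called. Atp7a, which loads copper onto these enzymes, was at 0.56 (adjusted p = 0.0656).

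Genes that degrade elastin or hold its proteases in check were counted in the same way, against the 40.7% of all genes called higher in lung. All 4 tested proteases were called higher, including Mmp2 (3.54), Ctsk (3.35) and the macrophage cathepsin Ctss (2.59), at 186 and 165 FPKM in lung and 114 and 111 in small intestine. Ctss and the remaining protease, Mmp9, were also called higher in small intestine than in its remaining tissues on average, where 13.7% of all genes were. Of 7 protease inhibitors, 5 were higher, among them Timp2 (4.54, at 130 and 151 FPKM in lung), Slpi (4.06), an inhibitor of neutrophil elastase, and Cst3 (3.05), an inhibitor of cathepsins at 1309 and 1381 FPKM. Serpina1a (-3.11) and Serpina1b (-2.89), genes of the antitrypsin family, were lower in lung and were at 5636 and 5810 and at 3691 and 3661 FPKM in liver. They are near-identical copies, so reads may be split uncertainly between them. Of 8 TGF-beta ligands and integrins, 6 were higher, led by Tgfb1 (2.84) and Tgfb3 (2.75).

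**Figure D5:**
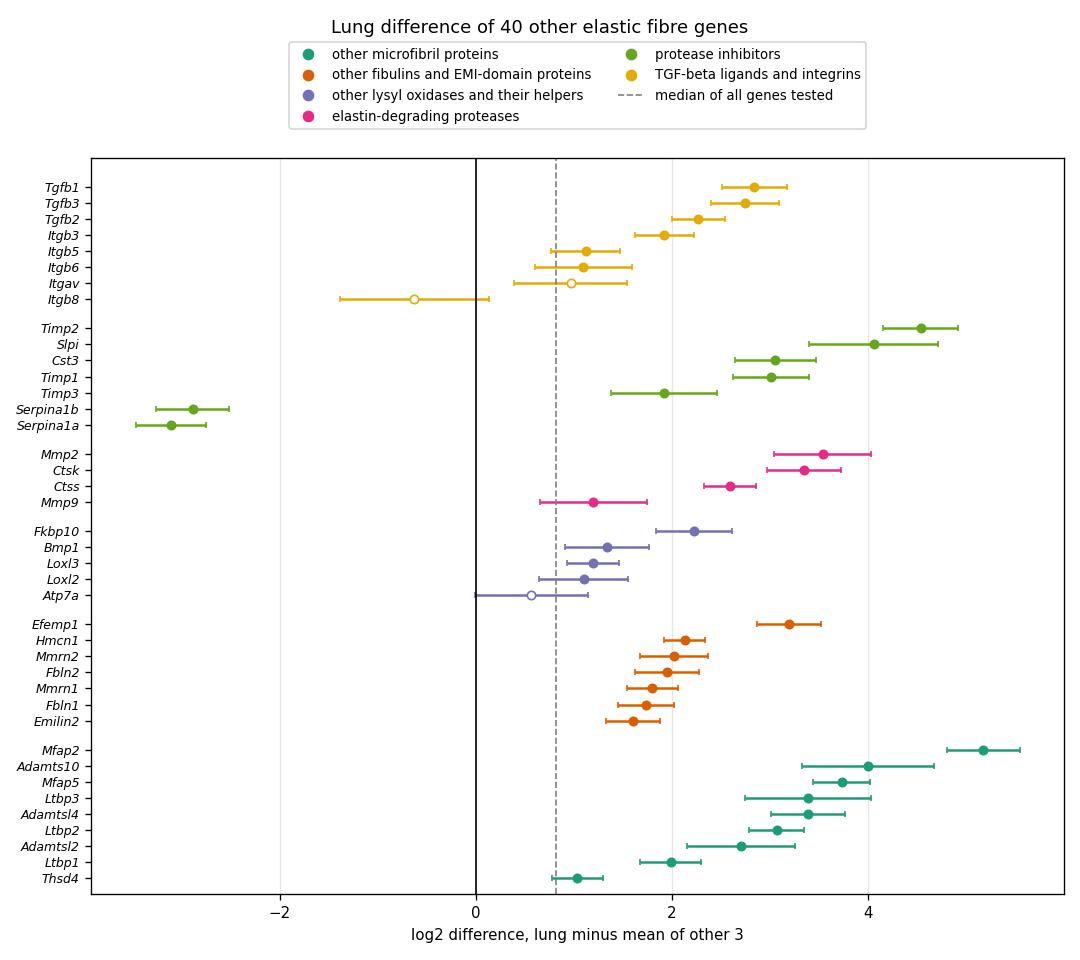
Difference between lung and the mean of the other tissues on the log2(FPKM + 1) scale for the 40 tested genes of the wider list, coloured by role, with 95% intervals (filled points, called; open points, not called). Of the 40 points, 35 are called higher, and Serpina1a and Serpina1b lie far to the left at -3.11 and -2.89.

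Other tissues led for a few genes of the wider list, which were picked out after their values were seen. Fbln1, a fibulin of basement membranes and matrix, was at 39.1 and 41.1 FPKM in small intestine, above 14.4 and 14.1 in lung. Timp3, a matrix-bound protease inhibitor that also binds Efemp1, was at 97.2 and 63.1 FPKM in kidney, above 30.5 and 20.9 in lung, a difference of 1.59 (adjusted p = 0.00155). In kidney, 3 of the 40 were called higher and 16 lower, where 8.65% of all genes were called higher and 16.1% lower. In liver the counts were 3 and 25 (6.56% and 32.7% of all genes), and in small intestine 3 and 9 (13.7% and 11.3%).

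The genes whose levels ran most like each member over the 8 libraries were sought among 7533 genes that reached an FPKM of 10 in any library. The likeness was Pearson's r of log2(FPKM + 1), given as a description. The 8 libraries share 4 tissues, and any gene high in lung and low elsewhere scores near 1. For Eln the nearest were Heg1, Lpcat1 and Mxra8 (r of 0.999, 0.999 and 0.998), and 791 genes had r above 0.95. For Mfap4 they were Rbpjl, Spock2 and Vwf, for Lox C7, Ism1 and Ccdc113, and for Loxl1 Snapin, Laptm4a and Gpc3. For Efemp2 they were Thbd, Pecam1 and Timp2, the middle one an endothelial marker. For Fbn1 they were Swap70, Dll4 and Il2rg, for Ltbp4 Csrnp1, Frmd6 and Flt3l, and for Emilin1 Txndc12, Prkd2 and Sipa1. Fbln5 had fewer companions, with 226 genes above 0.95 against 640 to 867 for the others. Its nearest were Fhl1, Npnt and Aebp1, which like Fbln5 were second highest in kidney. Npnt encodes nephronectin, a matrix ligand of integrins. It was at 84.1 and 100.4 FPKM in lung and 26.2 and 16.7 in kidney.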

How the data were processed

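Polyadenylated RNA of 4 mouse tissues (2 libraries each) was sequenced. From the deposited FPKM table, symbol-level values were used. The authors aligned reads with STAR 2.5.3a to the Ensembl mouse reference genome named in the study's methods and scaled them to FPKM with DESeq2. The counting program and its use of strand are not given in the sources used here. The study's methods state that the 4 tissues were taken from each mouse; whether a replicate number marks 1 mouse is not stated, and p-values measure the spread between these libraries. Gene coordinates are from GENCODE M21 (GRCm38). Reads were recovered from the FPKM steps with 1 length per gene, which 51844 of 52195 genes had. The recovered reads on genes numbered 9164156 to 21444661 per library. Between 94.5% and 96.1% of values below 50 reads were whole within 0.02 reads. Of 62 member values checked up to a higher limit, 46 were whole within 0.02 reads, with a largest deviation of 0.376. Read numbers of the members are thus approximate.

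Values were tested as log2(FPKM + 1) with limma 3.58.1 (R 4.3.3, trended eBayes) over 16328 genes that reached an FPKM of 1 in 2 or more libraries, all 8 libraries in 1 fit, Benjamini-Hochberg adjusted within each contrast. Calls needed an adjusted p below 0.05 together with a log2 difference beyond 1 in either direction. Contrasts were 1 tissue against the average of the remaining 3, the 6 pairs, and lung after subtraction of the fibroblast mean. Alternatives were pseudocount, filter, scaling (median-of-ratios, quantile, equal sums), limma-voom on recovered reads, marker reference, replicate block and each library left out. All 9 members are described; from each wider list, the 2 called genes with the largest absolute lung difference and genes above an FPKM of 100 are named. The members and lists were chosen with earlier results of these data known. Tables and figures used Python 3.11.15, pandas 2.3.3, scipy 1.17.1 and matplotlib 3.10.9.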

Additional observations from a re-analysis of the deposited data

How the results depend on the processing

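Across the alternatives run, no called difference of a member changed direction. Of 1708 single values, 1633 kept their side of the threshold, 34 lost it and 41 gained it. The count of members called higher in lung stayed at 9 when each library was left out. It was 8 with median-of-ratios scaling, without Emilin1. The number called higher in kidney was 1 (Fbln5) in place of 0 with a pseudocount of 0.1, median-of-ratios scaling, quantile normalization and limma-voom, and 0 to 1 when each library was left out (1 without kidney replicate 2, liver replicate 2 or small intestine replicate 1). Members lower in liver numbered 4 in place of 8 with median-of-ratios scaling (13.9% of all genes) and with quantile normalization. Emilin1 was called lower in liver as well with a pseudocount of 0.1 (-1.05) and with limma-voom (-1.08). In small intestine, Efemp2 was called lower with the same settings (-1.04 and -1.07), and Ltbp4 with quantile normalization (-1.12). The wider list gave 23 higher in lung in place of 35 with quantile normalization, and 33 to 36 with a library left out. Relative to fibroblast markers, 2 members were higher, against 5 with smooth muscle markers, 4 with a pseudocount of 0.1 and 2 to 3 with a library left out (3 without lung replicate 1, with Ltbp4 at 1.09). With libraries left out, the members lower in kidney numbered 3 to 6, those lower in liver 8 to 8, those lower in small intestine 4 to 5 and the called pairs 30 to 33. Where a library left a tissue with 1 sample, that sample was taken to vary like the others. The share of all genes called was not computed for most of these settings. The changed counts can thus not be told apart from a shift of all genes. The cause of these changes was not tested.

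The replicate numbers are shared across tissues, and deviations of same-numbered libraries correlated between -0.22 and 0.05 over 6 tissue pairs, so the numbers were not treated as pairs. With the replicate block, the counts were 9 members higher in lung, 32 called pairs, 35 of the wider list and 2 relative to fibroblast markers, and all 99 single values kept their side. With 2 libraries per tissue, the intervals of differences outside lung stayed wide.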
